A study of Homo sapiens with 21 samples.

Results

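The genes described here are BCR, ABL1, ABL2, NUP214, CRKL, GAB2, GRB2, SHC1, INPP5D and CBL, the partners of the fusion carried by K562 leukaemia cells with genes placed around them by position or by signalling. Their rows were taken by symbol from both count tables, and they are 10 of the 28008 genes that each table holds. All 10 passed the low-count filter in each of the 8 comparisons below.

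Messenger RNA was sequenced from 21 libraries of 2 human leukaemia lines, in 7 groups of 3 libraries and 2 sequencing batches. OCI-AML3 is an acute myeloid leukaemia line, and K562 is an erythroleukaemia line, as the labels have it, grown from the blast crisis of a chronic myeloid leukaemia. The study asks what separates leukaemia cells that are sensitive to stapled oncolytic peptides from cells that are not. The sources used here do not say how the cells were grown, dosed or selected. Batch 1 held resistant 1 (OCI-AML3, genotype Res, treatment StAMP, BioRep1), K562 parental (genotype WT, with no treatment named), vehicle (OCI-AML3, genotype WT, treatment DMSO) and OCI-AML3 parental libraries (genotype WT, with no treatment named). Batch 2 held resistant 1 and resistant 2 (BioRep1 and BioRep2 of the same genotype and treatment labels) and vehicle libraries. The labels do not spell out StAMP. Nothing states that replicate libraries came from separate cultures, so each p-value measures only the spread between these libraries.

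BCR-ABL1 is made when chromosomes 9 and 22 exchange ends, which joins the front of BCR to the kinase part of ABL1 and leaves that kinase switched on. The active kinase is read by adaptors: GRB2 docks on the BCR part and brings the RAS activator SOS, GAB2 binds through GRB2 and brings PI3 kinase and the phosphatase SHP2, and CRKL is among its most heavily phosphorylated substrates in chronic myeloid leukaemia. INPP5D (SHIP1) removes a phosphate from the lipid that PI3 kinase makes, and CBL is a ubiquitin ligase that marks active tyrosine kinases for removal.

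The sequences at the fusion point are shown because the gene counts cannot show the fusion: a count of BCR or of ABL1 adds up reads from the whole gene, whether they came from the fused or the unfused transcript. In K562 the fusion is known to join exon 14 of BCR to exon 2 of ABL1. The 30 reference bases on either side, from hg38 with GENCODE exons, are given 5′ to 3′, with the 8 bases next to the junction in capitals. The first run ends BCR exon 14 (chr22:23290384-23290413, plus strand) and the second opens ABL1 exon 2 (chr9:130854064-130854093, plus strand).
BCR exon 14: actcagccactggatttaagcaGAGTTCAA
ABL1 exon 2: AAGCCCTTcagcggccagtagcatctgact
No reads across this junction were analysed here, so every BCR and ABL1 value below is a gene total.

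The start regions of 5 members are shown: those of the fusion partners BCR and ABL1, of NUP214 and CRKL, which lie on the same chromosomes, and of INPP5D, which fell most in K562. GAB2, GRB2 and SHC1 also moved one way in every comparison of resistant with vehicle libraries and of K562 with OCI-AML3 parental libraries, and are not printed. Each run holds 250 bases before and 50 after the gene start given by RefSeq (GRCh38.p14), 5′ to 3′ on the gene's own strand. For ABL1 and ABL2 that start lies far inside the gene as GENCODE spans it. The GENCODE span opens at chr9:130713043 for ABL1 and at chr1:179229684, minus strand, for ABL2. Distances between genes below use GENCODE starts. Capitals mark the GC box GGGCGG and the ETS word GAGGAA, on either strand. No other ETS word was searched, so ETS sites of other sequence are neither marked nor counted. The GATA words AGATAA, plus AGATAG, plus TGATAA, plus TGATAG, were also searched on both strands.
BCR (chr22:23180259-23180558, plus strand): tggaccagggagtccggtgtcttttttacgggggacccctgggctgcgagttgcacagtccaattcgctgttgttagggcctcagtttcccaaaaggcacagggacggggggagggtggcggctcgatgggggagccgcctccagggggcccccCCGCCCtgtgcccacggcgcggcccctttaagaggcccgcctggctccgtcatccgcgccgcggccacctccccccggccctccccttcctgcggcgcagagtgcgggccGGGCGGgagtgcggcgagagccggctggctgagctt
ABL1 (chr9:130835004-130835303, plus strand): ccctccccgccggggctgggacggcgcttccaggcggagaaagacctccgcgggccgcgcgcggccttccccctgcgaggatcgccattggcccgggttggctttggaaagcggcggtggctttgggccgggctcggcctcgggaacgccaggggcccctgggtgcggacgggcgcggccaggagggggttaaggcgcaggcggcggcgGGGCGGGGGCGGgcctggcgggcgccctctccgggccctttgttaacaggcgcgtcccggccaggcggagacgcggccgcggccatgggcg
NUP214 (chr9:131125336-131125635, plus strand): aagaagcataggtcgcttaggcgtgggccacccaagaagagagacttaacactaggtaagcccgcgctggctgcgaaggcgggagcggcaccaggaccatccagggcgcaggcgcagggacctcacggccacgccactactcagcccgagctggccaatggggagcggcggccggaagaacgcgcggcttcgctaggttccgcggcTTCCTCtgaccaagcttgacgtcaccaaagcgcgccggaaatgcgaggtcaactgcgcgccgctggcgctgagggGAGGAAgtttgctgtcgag
CRKL (chr22:20917157-20917456, plus strand): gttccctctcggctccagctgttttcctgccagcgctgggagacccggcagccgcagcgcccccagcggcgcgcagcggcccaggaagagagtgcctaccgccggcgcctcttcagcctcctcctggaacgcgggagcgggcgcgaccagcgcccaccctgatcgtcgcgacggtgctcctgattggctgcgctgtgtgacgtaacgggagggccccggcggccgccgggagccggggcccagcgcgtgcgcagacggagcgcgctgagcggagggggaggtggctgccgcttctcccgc
INPP5D (chr2:233060092-233060391, plus strand): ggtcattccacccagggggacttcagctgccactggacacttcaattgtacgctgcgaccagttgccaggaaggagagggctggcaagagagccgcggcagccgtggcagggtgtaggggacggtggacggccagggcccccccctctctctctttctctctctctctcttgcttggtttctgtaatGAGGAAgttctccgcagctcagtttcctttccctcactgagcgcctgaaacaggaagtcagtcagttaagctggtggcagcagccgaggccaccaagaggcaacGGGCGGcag
BCR and ABL1 each held 2 GC boxes, which lie end to end in ABL1 and do not overlap the other words. NUP214 held 2 ETS words, INPP5D 1 of each kind, and CRKL neither. Of the members not printed, GAB2 held 5 GC boxes, GRB2 4 GC boxes, ABL2 1 ETS word and SHC1 neither. Over 35116 RefSeq start regions of the same length, 44.95% held the GC box, 27.85% the ETS word and 24.97% a GATA word. The RefSeq table matched 9 of the 10 members, all but CBL, and none of these 9 start regions held a GATA word. GC content was 71.7% for BCR, 78.3% for ABL1, 65.3% for NUP214, 74.7% for CRKL and 60.3% for INPP5D, against a median of 58.7% over all start regions.

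Libraries held 14.1 to 21.1 M (mega) counts in batch 1 and 30.7 to 51.3 M in batch 2. The 9 libraries labelled resistant had profiles nearer to K562 than to the OCI-AML3 vehicle libraries, which goes against their OCI-AML3 label. Below, resistant means the libraries so labelled, and rose and fell mean higher and lower than vehicle: a change within OCI-AML3 and a difference between lines cannot be told apart. Across 10784 genes, the mean profile of resistant 1 in batch 1 correlated at r = 0.981 with K562 parental and at 0.509 with vehicle. In batch 2 the correlations with K562 parental were 0.925 for resistant 1 and 0.918 for resistant 2, against 0.568 and 0.564 with vehicle of their own batch. Of 12 erythroid genes typical of K562 (globins, GATA1, KLF1 and others), all 12 exceeded 1 CPM in every resistant group and in K562, and their summed level was 4706 to 5025 CPM in resistant 1 of batch 1, 4668 to 4794 CPM in K562 parental, 12.8 to 13.99 CPM in vehicle and 10.3 to 12.7 CPM in OCI-AML3 parental libraries. In batch 2 the sum was 1592 to 1716 CPM in resistant 1 and 949 to 1454 CPM in resistant 2, against 5.03 to 7.21 CPM in vehicle libraries. The 12 myeloid genes typical of OCI-AML3 summed to 86.8 to 89.3 CPM in resistant 1 of batch 1, with HOXA9 and HOXA10 at 0 counts, and to 41.6 to 46.0 CPM in K562 parental, with MPO, FLT3 and HOXA9 at 0, against 2440 to 2503 CPM in vehicle and 2674 to 2783 CPM in OCI-AML3 parental libraries. In batch 2 that sum was 176 to 206 CPM in resistant 1 and 133 to 145 CPM in resistant 2, with IRF8, HOXA9 and HOXA10 at 0 in both, against 2266 to 2338 CPM in vehicle libraries. In each comparison of resistant with vehicle libraries, 11 of these 12 genes were lower and 1 was higher. In resistant 1 of either batch 4 of the 12 exceeded 1 CPM, and in resistant 2 this held for 5. Of 7 genes typical of fibroblasts and epithelia, 6 were tested and all 6 were higher in resistant and in K562 libraries. They summed to 411 to 443.8 CPM in resistant 1 of batch 1, 536 to 549 CPM in K562 parental, 0.90 to 1.44 CPM in vehicle and 4.05 to 5.59 CPM in OCI-AML3 parental libraries, and in batch 2 to 302 to 489 CPM in the resistant groups, against 0.31 to 0.56 CPM in vehicle. Of 7 lymphocyte genes, 2 were tested in batch 1 and 3 in batch 2, all of them higher in resistant libraries, and their sum was 10.6 to 12.97 CPM in resistant 1 of batch 1, against 0.205 to 0.98 CPM in vehicle, with MS4A1 at 0 counts in every resistant group. These 4 lists move with each member result below that sets resistant or K562 libraries against OCI-AML3 libraries, and their part in those results was not tested. Because the samples are bulk RNA, fewer cells of a type and less RNA per cell cannot be told apart.

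Levels below are CPM, read counts relative to the library size scaled by TMM within each batch, and levels of different batches were therefore scaled separately. Differences are log2 fold changes with their standard error (SE), tested with edgeR's quasi-likelihood test, and a gene is called when its Benjamini-Hochberg adjusted p over all genes of that comparison is under 0.05.

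BCR, ABL1, ABL2, NUP214, CRKL and GAB2 rose and GRB2, SHC1, INPP5D and CBL fell in resistant 1 against vehicle libraries of batch 1, so that 10 of 10 members were called, where 86.0% of all 14609 genes tested were called. In batch 2, resistant 1 against vehicle gave 9 called members, 5 higher and 4 lower, against 75.7% of all 15218 genes, with ABL2 not called. Resistant 2 against the same vehicle libraries gave 10 called members, 6 higher and 4 lower, against 76.1% of all genes. K562 parental against OCI-AML3 parental gave 9 called members, 6 higher and 3 lower, against 85.1% of all genes, with CBL not called. Since most genes were called in these 4 comparisons, the number of members called is near the background and is no result about the members. The median log2 fold change of the 10 members was 0.59, 0.83, 0.79 and 1.225 in these comparisons, beside -0.04, 0.07, 0.07 and 0.01 over all genes tested.

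**Figure D1:**
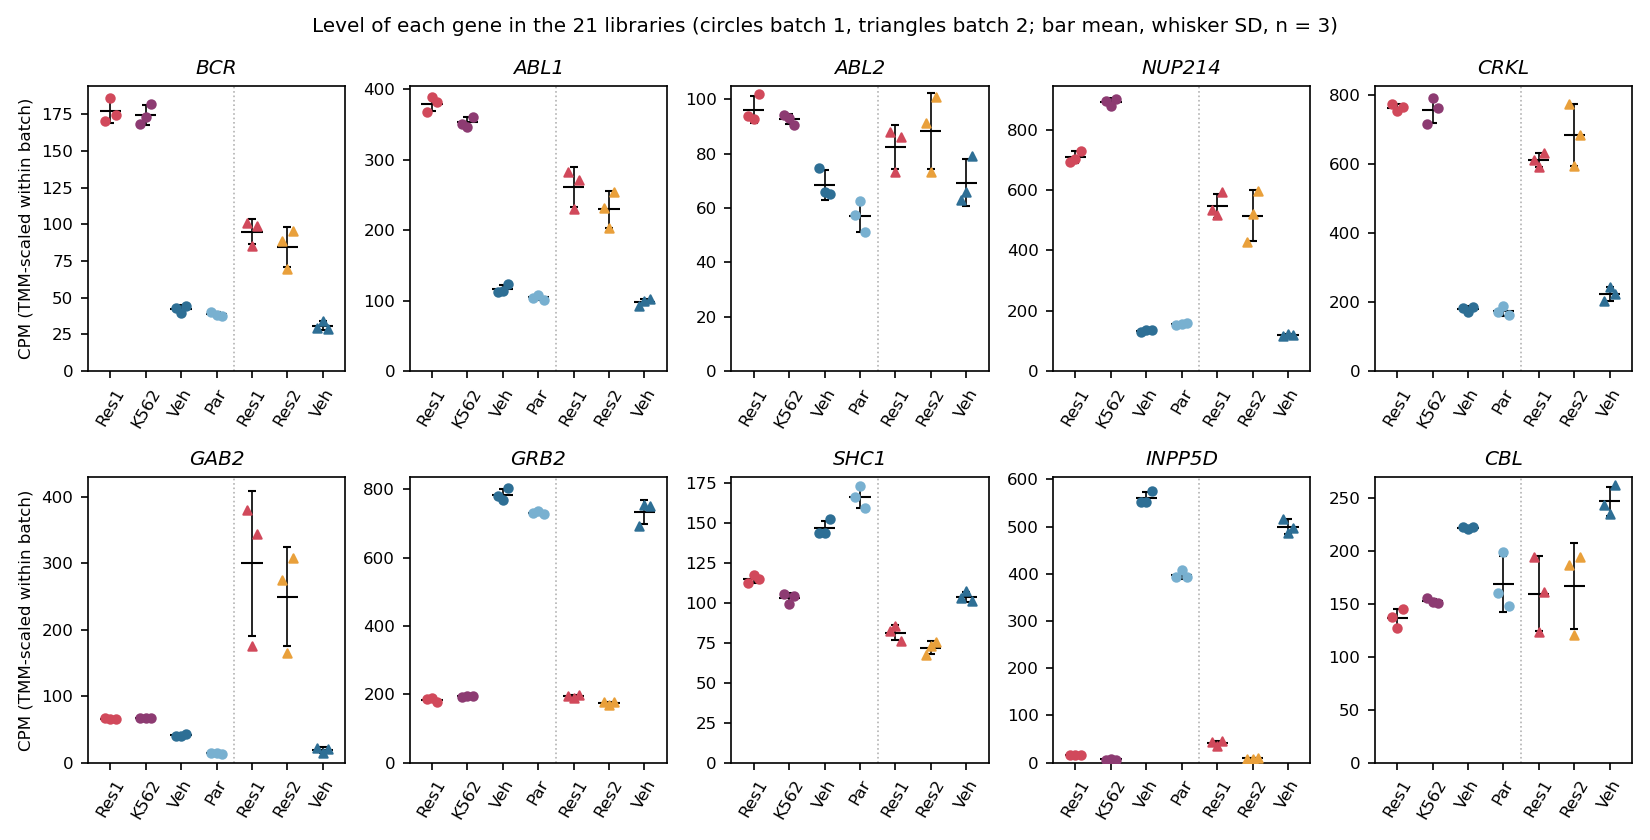
Level of each of the 10 genes in CPM (vertical axis, from 0, scaled within each batch) in the 7 groups (horizontal axis: Res1 resistant 1, Res2 resistant 2, K562 parental, Veh vehicle, Par OCI-AML3 parental). Points are libraries, circles batch 1 and triangles batch 2, bars the mean and whiskers the SD (n = 3). BCR, ABL1, NUP214 and CRKL stand high and GRB2 and INPP5D low in resistant and K562 libraries, with no overlap with vehicle or OCI-AML3 parental libraries, while GAB2 is highest in the resistant libraries of batch 2.

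BCR and ABL1, the fusion partners, were both higher in every resistant group and in K562. BCR, whose normal product has a kinase domain and regulates small GTPases, had 170.3, 186 and 175 CPM in resistant 1 of batch 1, against 43.1, 39.8 and 44.5 CPM in vehicle libraries. It had 168, 173 and 182 CPM in K562 parental, against 40.6, 38.4 and 37.6 CPM in OCI-AML3 parental libraries. The 6 resistant 1 and K562 libraries of that batch overlapped each other and lay far above the 6 vehicle and OCI-AML3 parental libraries. The log2 fold change was 2.06 (SE 0.06, adjusted p = 5.45e-23) for resistant 1 against vehicle and 2.17 (SE 0.06, adjusted p = 3.21e-23) for K562 against OCI-AML3 parental. Of all genes tested, 27.0% differed by more than BCR did between resistant 1 and vehicle. In batch 2, BCR had 101, 85.3 and 98.9 CPM in resistant 1 and 88.9, 69.3 and 95.5 CPM in resistant 2, against 29.6, 34.5 and 28.7 CPM in vehicle libraries. The resistant groups overlapped each other and not the vehicle group, with log2 fold changes of 1.62 (SE 0.14, adjusted p = 5.25e-08) for resistant 1 and 1.45 (SE 0.14, adjusted p = 1.70e-07) for resistant 2, which share their vehicle libraries.

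ABL1, a tyrosine kinase that shuttles between cytoplasm and nucleus, had 368, 388 and 381 CPM in resistant 1 of batch 1, against 112, 113 and 123 CPM in vehicle libraries. K562 parental had 351, 346 and 361 CPM, against 104, 108 and 102 CPM in OCI-AML3 parental libraries. Every resistant 1 library stood above every K562 library, and both stood above the OCI-AML3 groups, with log2 fold changes of 1.71 (SE 0.05, adjusted p = 4.93e-23) for resistant 1 against vehicle and 1.75 (SE 0.05, adjusted p = 3.82e-23) for K562 against OCI-AML3 parental. In batch 2, ABL1 had 282, 229 and 271 CPM in resistant 1 and 232, 203 and 254 CPM in resistant 2, against 92.9, 99.2 and 102 CPM in vehicle libraries. The log2 fold changes there were 1.41 (SE 0.12, adjusted p = 4.85e-08) and 1.23 (SE 0.12, adjusted p = 2.25e-07). Its relative ABL2, a cytoplasmic kinase that binds actin, had smaller values of change: it averaged 96.2 ± 4.97 CPM in resistant 1 of batch 1 and 68.5 ± 5.36 CPM in vehicle libraries (SD, n = 3 each), a log2 difference of 0.49 (SE 0.06, adjusted p = 6.28e-08). K562 parental averaged 92.6 ± 1.78 CPM and OCI-AML3 parental 57.1 ± 5.74 CPM, a log2 difference of 0.70 (SE 0.07, adjusted p = 1.35e-10). In batch 2, ABL2 had 88.1, 73.4 and 86.2 CPM in resistant 1 and 91.1, 73.4 and 101 CPM in resistant 2, against 63.1, 65.8 and 79.2 CPM in vehicle libraries, so that both resistant groups overlapped vehicle. Within each replicate number, however, both resistant groups stood above vehicle. The difference was 0.25 for resistant 1, with a 95% interval of -0.04 to 0.54 (adjusted p = 0.105), and it was called with the replicate number as a block (0.25, SE 0.11, adjusted p = 0.0401). It was 0.35 for resistant 2, with an interval of 0.06 to 0.64 (adjusted p = 0.0289), and 0.34 with the block (SE 0.11, adjusted p = 0.00763). Without the block, the call for resistant 2 was lost when any of 4 libraries was left out. Adjusted p was 0.0703 and 0.13 without resistant 2 replicates 1 and 3, and 0.0932 and 0.0782 without vehicle replicates 1 and 2.

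NUP214, a nuclear pore protein whose gene starts 0.412 Mb after that of ABL1 on the same strand, had 693, 703 and 731 CPM in resistant 1 of batch 1 and 897, 879 and 903 CPM in K562 parental libraries. Vehicle libraries had 130.5, 137 and 137 CPM and OCI-AML3 parental libraries 153, 156 and 160 CPM. All 4 groups were separate, and resistant 1 lay below K562, with a log2 difference of -0.33 (SE 0.04, adjusted p = 5.00e-08). The log2 fold change was 2.39 (SE 0.04, adjusted p = 2.22e-27) for resistant 1 against vehicle and 2.51 (SE 0.04, adjusted p = 8.34e-28) for K562 against OCI-AML3 parental, above those of ABL1 and BCR in the same comparisons. In batch 2 NUP214 had 534, 517 and 593 CPM in resistant 1 and 428, 522 and 596 CPM in resistant 2, against 117, 122 and 120 CPM in vehicle libraries. The log2 fold changes were 2.20 (SE 0.13, adjusted p = 7.66e-10) and 2.11 (SE 0.13, adjusted p = 1.16e-09).

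Among the adaptors, CRKL rose and GRB2 fell in all 4 of these comparisons. CRKL, which links phosphorylated proteins to guanine nucleotide exchange factors through its SH2 and SH3 domains, had 774, 754 and 765 CPM in resistant 1 of batch 1, against 184, 172 and 187 CPM in vehicle libraries. It had 718, 792 and 764 CPM in K562 parental, against 172, 190 and 162 CPM in OCI-AML3 parental libraries. Resistant 1 and K562 overlapped, and neither overlapped an OCI-AML3 group, with log2 fold changes of 2.08 (SE 0.05, adjusted p = 7.68e-24) and 2.12 (SE 0.05, adjusted p = 6.35e-24). In batch 2 CRKL had 613, 591 and 634 CPM in resistant 1 and 774, 594 and 685 CPM in resistant 2, against 202, 244 and 224 CPM in vehicle libraries, with log2 fold changes of 1.46 (SE 0.12, adjusted p = 4.48e-08) and 1.62 (SE 0.12, adjusted p = 1.41e-08).

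GRB2, the adaptor that carries SOS to phosphorylated kinases, had 186, 189 and 179 CPM in resistant 1 of batch 1, against 780, 767 and 802 CPM in vehicle libraries. K562 parental had 193, 194 and 195 CPM, against 729, 736 and 728 CPM in OCI-AML3 parental libraries. In batch 2 it had 194, 190.0 and 198 CPM in resistant 1 and 177, 169 and 177 CPM in resistant 2, against 691, 754 and 750.5 CPM in vehicle libraries. The 9 resistant and 3 K562 libraries had at most 198 CPM and the 9 OCI-AML3 vehicle and parental libraries at least 691 CPM. GRB2 fell by 2.08 on the log2 scale in resistant 1 of batch 1 (SE 0.04, adjusted p = 1.82e-26), by 1.92 in resistant 1 of batch 2 (SE 0.10, adjusted p = 1.89e-10), by 2.07 in resistant 2 (SE 0.10, adjusted p = 8.43e-11) and by 1.91 in K562 against OCI-AML3 parental (SE 0.04, adjusted p = 1.27e-25).

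GAB2, the docking protein that GRB2 brings to the kinase, was the member whose change in resistant 1 differed most between batches. In batch 1 it had 67.0, 66.0 and 65.9 CPM in resistant 1, against 40.5, 40.2 and 43.2 CPM in vehicle libraries. K562 parental had 67.4, 67.7 and 67.5 CPM, against 14.5, 14.8 and 12.8 CPM in OCI-AML3 parental libraries. Every resistant 1 library lay just below every K562 library, vehicle stood between these and OCI-AML3 parental, and the log2 fold changes were 0.69 (SE 0.06, adjusted p = 8.42e-12) for resistant 1 against vehicle and 2.26 (SE 0.07, adjusted p = 4.76e-22) for K562 against OCI-AML3 parental. In batch 2 GAB2 had 381, 176 and 344 CPM in resistant 1 and 276, 166 and 308 CPM in resistant 2, against 21.6, 14.2 and 21.1 CPM in vehicle libraries. Replicate 2 was lowest in all 3 groups of that batch, yet the resistant libraries remained far above vehicle, with log2 fold changes of 3.98 (SE 0.35, adjusted p = 1.69e-06) for resistant 1 and 3.72 (SE 0.34, adjusted p = 2.68e-06) for resistant 2. With the replicate number as a block these fold changes were 3.94 and 3.70, with an SE of 0.12 each. SHC1, which docks on receptors and recruits GRB2, was lower by less: it had 112, 117 and 115 CPM in resistant 1 of batch 1, against 143, 144 and 152 CPM in vehicle libraries. The log2 fold change was -0.35 (SE 0.05, adjusted p = 1.28e-07), and it was -0.35 (SE 0.10, adjusted p = 0.00485) for resistant 1 and -0.53 (SE 0.10, adjusted p = 2.00e-04) for resistant 2 in batch 2. K562 parental libraries had 105, 99.1 and 104 CPM of SHC1, against 166, 173 and 159 CPM in OCI-AML3 parental libraries, a log2 difference of -0.69 (SE 0.05, adjusted p = 2.06e-13).

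INPP5D, the lipid phosphatase of blood cells, had the greatest log2 fold change of the 10 members in resistant 1 against vehicle of batch 1, in resistant 2 against vehicle and in K562 against OCI-AML3 parental, while in resistant 1 against vehicle of batch 2 that of GAB2 was greater. It had 17.3, 15.9 and 15.6 CPM in resistant 1 of batch 1, against 552, 552 and 575 CPM in vehicle libraries. K562 parental had 6.73, 7.38 and 6.80 CPM, against 393, 409 and 393 CPM in OCI-AML3 parental libraries. Within each batch no group overlapped its neighbour in the order of levels, and in batch 1 that order was vehicle, OCI-AML3 parental, resistant 1 and K562. INPP5D fell by 5.10 on the log2 scale in resistant 1 against vehicle (SE 0.05, adjusted p = 7.35e-32), a 34.2-fold difference that 14.2% of all genes exceeded, and by 5.84 in K562 against OCI-AML3 parental (SE 0.06, adjusted p = 5.61e-32). In batch 2 it had 44.1, 36.1 and 45.05 CPM in resistant 1 and 8.91, 8.43 and 10.2 CPM in resistant 2, against 517, 486 and 497 CPM in vehicle libraries. The fall was 3.58 (SE 0.12, adjusted p = 2.28e-12) in resistant 1 and 5.77 (SE 0.14, adjusted p = 8.18e-14) in resistant 2.

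CBL was lower in the resistant groups, with a wide spread in batch 2. It had 137, 127 and 145 CPM in resistant 1 of batch 1, against 222, 221 and 222 CPM in vehicle libraries, a log2 difference of -0.70 (SE 0.08, adjusted p = 9.87e-08). In batch 2 it had 194, 124 and 161 CPM in resistant 1 and 186, 120.1 and 194 CPM in resistant 2, against 243, 235 and 262 CPM in vehicle libraries. As with GAB2, replicate 2 was lowest in both resistant groups, and no resistant library reached the vehicle range, with log2 fold changes of -0.63 (SE 0.18, adjusted p = 0.00592) and -0.56 (SE 0.18, adjusted p = 0.0111). K562 parental had 155, 151 and 151 CPM, and the OCI-AML3 parental libraries, at 160, 198 and 148 CPM, enclosed that range. Their difference was -0.15 with a 95% interval of -0.31 to 0.02 (adjusted p = 0.0860), and it was called without OCI-AML3 parental replicate 3 (-0.23, adjusted p = 0.00147), in DESeq2 (-0.16, adjusted p = 0.0474) and with no low-count filter (-0.17, adjusted p = 0.00174).

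**Figure D2:**
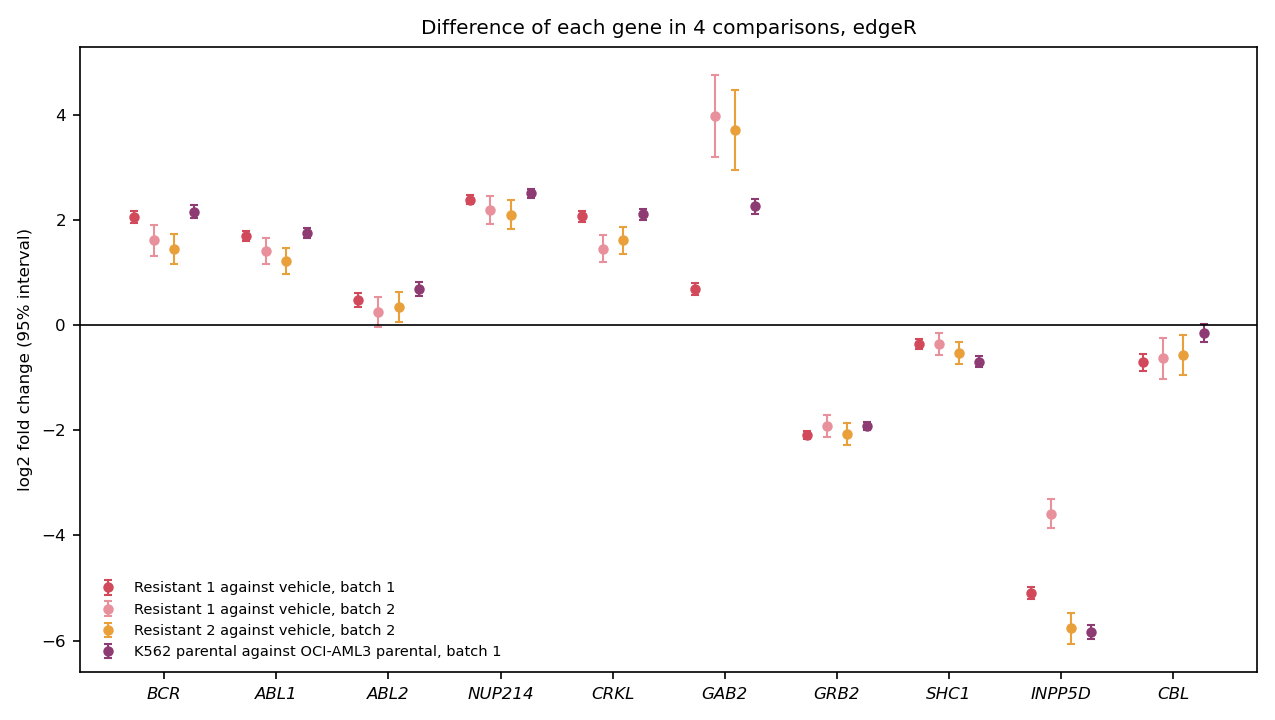
Log2 fold change (vertical axis) of each gene (horizontal axis) in 4 comparisons, with 95% intervals as whiskers: resistant 1 against vehicle in batch 1 and in batch 2, resistant 2 against vehicle in batch 2, and K562 parental against OCI-AML3 parental. NUP214 lies between 2.11 and 2.51 and GRB2 between -2.08 and -1.91 in all 4, whereas GAB2 runs from 0.69 to 3.98 and INPP5D from -5.84 to -3.58.

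Differences between the vehicle and OCI-AML3 parental libraries of batch 1 were smaller, but GAB2 stood out among the members. Of the 10 members, 8 were called, 6 higher and 2 lower in vehicle, where 37.0% of all genes were called. GAB2 averaged 41.3 ± 1.64 CPM in vehicle and 14.04 ± 1.08 CPM in OCI-AML3 parental libraries (SD, n = 3 each), a log2 difference of 1.55 (SE 0.07, adjusted p = 4.81e-16) that 3.98% of all genes exceeded. INPP5D averaged 560 ± 13.5 CPM in vehicle and 398 ± 9.03 CPM in OCI-AML3 parental libraries, a log2 difference of 0.49 (SE 0.04, adjusted p = 3.02e-10), and 19.4% of genes exceeded it. CBL (0.39, adjusted p = 0.000507), ABL2 (0.26, adjusted p = 0.00266) and ABL1 (0.15, adjusted p = 0.0131) were also higher in vehicle, while NUP214 (-0.22, adjusted p = 0.000179) and SHC1 (-0.18, adjusted p = 0.00280) were lower. The ABL1 call was lost without vehicle replicate 3 (0.11, adjusted p = 0.101) and with only the compared groups in the fit (0.12, adjusted p = 0.0723). GRB2, at 0.10 (adjusted p = 0.0399), lost its call when any 1 of the 6 libraries was left out, with adjusted p of 0.0524 to 0.156. BCR (0.12, 95% interval -0.00 to 0.25, adjusted p = 0.119) and CRKL (0.05, 95% interval -0.06 to 0.15, adjusted p = 0.497) were not called. OCI-AML3 parental libraries are also the reference of the K562 comparison, and vehicle libraries that of resistant 1, so these differences share samples with both.

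Resistant 1 and K562 parental libraries of batch 1 were close in most members. Of the 10, 4 were called, where 53.2% of all genes were called. INPP5D was higher in resistant 1, at 16.3 ± 0.92 CPM against 6.97 ± 0.36 CPM in K562 parental libraries (SD, n = 3 each), a log2 difference of 1.23 (SE 0.08, adjusted p = 9.16e-13) that 10.3% of all genes exceeded. NUP214, given above, was lower in resistant 1, and ABL1 (0.10, SE 0.04, adjusted p = 0.0440) and SHC1 (0.16, SE 0.05, adjusted p = 0.00839) were higher. For the fusion partner BCR the difference was 0.02 with a 95% interval of -0.08 to 0.12, for CRKL 0.01 with -0.09 to 0.11, for GAB2 -0.03 with -0.14 to 0.09 and for GRB2 -0.07 with -0.15 to 0.01. ABL2 (0.05, 95% interval -0.07 to 0.18) and CBL (-0.16, 95% interval -0.32 to 0.00) were not called either.

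Within batch 2, INPP5D separated resistant 2 from resistant 1. It was the 1 member called of 10, where 24.4% of all 15218 genes were called. It averaged 9.17 ± 0.91 CPM in resistant 2 and 41.8 ± 4.88 CPM in resistant 1 (SD, n = 3 each), a log2 difference of -2.19 (SE 0.12, adjusted p = 5.21e-08), and 3.58% of all genes differed by more. For the other 9 members the log2 differences ran from -0.27 in GAB2 to 0.16 in CRKL, with adjusted p of 0.213 to 0.838. The widest interval was that of GAB2, -0.94 to 0.41. Within each replicate number, GAB2 was lower in resistant 2. With the replicate number as a block its difference was -0.24 (SE 0.11, adjusted p = 0.102), still not called.

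The change in resistant 1 against vehicle was then compared between batches in 1 fit of the 12 libraries concerned. Of the 10 members, 6 were called, where 33.2% of all 15209 genes were called. GAB2 rose by 3.21 more in batch 2 than in batch 1 on the log2 scale (SE 0.36, adjusted p = 8.57e-05), and 2.87% of all genes differed more. INPP5D fell less in batch 2, by a difference of 1.42 (SE 0.12, adjusted p = 1.98e-07). BCR (-0.53, SE 0.12, adjusted p = 0.00271), ABL1 (-0.38, SE 0.11, adjusted p = 0.0130), NUP214 (-0.29, SE 0.10, adjusted p = 0.0294) and CRKL (-0.71, SE 0.11, adjusted p = 6.97e-05) rose less in batch 2. The NUP214 call was lost without resistant 1 replicate 3 of batch 1 (adjusted p = 0.0700) and without vehicle replicates 1, 2 or 3 of batch 1 (adjusted p = 0.0754, 0.0527 and 0.0544). ABL2 (-0.33, 95% interval -0.61 to -0.05, adjusted p = 0.0674), GRB2 (0.08, -0.12 to 0.27), SHC1 (-0.09, -0.29 to 0.11) and CBL (-0.02, -0.36 to 0.32) were not called. Over 17 alternative settings the ABL2 difference was called in 5, with adjusted p of 0.0312 to 0.179 over all 17. The erythroid sum was also lower in the resistant 1 libraries of batch 2 than in those of batch 1, as given above, and its part in these differences was not tested. K562 and OCI-AML3 parental libraries were sequenced in batch 1, so nothing here gives their levels in batch 2.

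Per kilobase of exon, which allows genes to be compared with each other, the leading member changed with the line. In K562 parental libraries CRKL led with 142 ± 6.99 CPM per kilobase, followed by ABL1 with 50.5 ± 1.05, GRB2 with 41.1 ± 0.25, NUP214 with 36.1 ± 0.51 and SHC1 with 23.7 ± 0.78 (SD, n = 3). BCR had 14.3 ± 0.58 CPM per kilobase there, and INPP5D was last with 0.80 ± 0.04. In OCI-AML3 parental libraries GRB2 led with 155 ± 0.93 CPM per kilobase, INPP5D was next with 45.9 ± 1.04, and BCR, with 3.18 ± 0.13, stood above GAB2 alone. The ranks in resistant 1 of batch 1 were those of K562 for all 10 members, while in batch 2 GAB2 ranked 2 in resistant 1, with 44.3 ± 16.1 CPM per kilobase, and 3 in resistant 2, with 36.9 ± 11. Lengths are merged exons of GENCODE release 44, and the sources used here do not say whether the authors counted on it. Counts of SHC1 and CBL may share reads with genes they overlap: PYGO2, on the strand of SHC1, averaged 53.0 to 84.5 CPM over the groups, and MCAM, opposite CBL, 0.52 to 95.1 CPM. The library kit keeps strand, but the sources used here do not give the strand setting of the counting. The BCR-like pseudogene BCRP2 had 0 to 4 counts per group and BCRP3 group means of 0.06 to 1.52 CPM.

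Genes beside BCR and ABL1 on their chromosomes did not all move with them. Of protein-coding genes within 1 Mb of BCR on chromosome 22, 15 were tested, and in K562 against OCI-AML3 parental 4 were higher and 8 lower, with a median log2 fold change of -0.38. Resistant 1 against vehicle gave 3 and 8 in batch 1 (median -0.28) and 6 and 5 in batch 2 (median -0.05), and resistant 2 gave 4 and 4 (median 0.17). Within 1 Mb of ABL1 on chromosome 9, 19 were tested, of which 5 were higher and 11 lower in K562 against OCI-AML3 parental, with a median of -0.19. Resistant 1 against vehicle gave 5 and 12 in batch 1 and, of 20 tested, 5 and 10 in batch 2, and resistant 2 gave 5 and 6. Over all genes 42.9% were higher and 42.2% lower in K562 against OCI-AML3 parental. The shares were 41.8% and 44.2% in resistant 1 against vehicle of batch 1. In batch 2 they were 39.9% and 35.8% for resistant 1 and 40.2% and 35.9% for resistant 2. Of the genes named nearest to ABL1, NUP214 and AIF1L were higher in K562 against OCI-AML3 parental (AIF1L 0.68, adjusted p = 0.000340), FUBP3 was higher by 0.43 (adjusted p = 2.28e-05), and EXOSC2 (-0.27, adjusted p = 9.91e-05), FIBCD1 (-2.75, adjusted p = 1.06e-07) and ASS1 (-4.50, adjusted p = 8.66e-23) were lower. FIBCD1 had low levels, 0.24 CPM in K562 and 1.66 CPM in OCI-AML3 parental libraries. Of the genes named nearest to BCR, GNAZ (-2.32, adjusted p = 3.65e-06), RAB36 (-5.19, adjusted p = 2.92e-09), MMP11 (-2.09, adjusted p = 4.70e-05) and SMARCB1 (-0.71, adjusted p = 2.86e-12) were lower in K562, and ZNF70 and CHCHD10 were not called. GNAZ, RAB36 and MMP11 had low levels: 0.28, 0.04 and 0.32 CPM in K562 and 1.43, 1.74 and 1.40 CPM in OCI-AML3 parental. GNAZ was not called in any comparison of resistant with vehicle libraries (adjusted p = 0.285, 0.547 and 0.714). MMP11, SMARCB1, ZNF70 and CHCHD10 lie 421 to 469 kilobases from BCR. In resistant 1 against vehicle of batch 2, MMP11 was higher (1.34, adjusted p = 0.00615), at 0.99 CPM against 0.39 CPM. The 4 higher in K562 were ZNF280B (3.21, adjusted p = 1.08e-23), DERL3 (0.39, adjusted p = 0.0169), PRAME, a tumour antigen with 1583 CPM in K562 and 0.45 CPM in OCI-AML3 parental libraries, and ZNF280A, with 37.1 CPM in K562 and 0 in OCI-AML3 parental libraries.

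The wider stretch on the side of BCR that also holds CRKL looked different, a window chosen after its values were seen. Of 42 protein-coding genes tested that start up to 3.5 Mb before BCR, 35 were higher and 6 lower in K562 against OCI-AML3 parental, with a median log2 fold change of 1.79. Of 26 that start up to 3.5 Mb after BCR, 6 were higher and 16 lower, with a median of -0.74. Resistant 1 against vehicle in batch 1 gave 35 higher and 5 lower before BCR (median 1.73) and 3 higher and 18 lower after it (median -0.77), where 41.8% of all genes were higher and 44.2% lower. In batch 2, 33 of 39 genes before BCR were higher for resistant 1 and 35 of 39 for resistant 2, with 0 lower in either, where 39.9% and 40.2% of all genes were higher. After BCR the lean was weaker there. Of 25 genes, 7 were higher and 14 lower for resistant 1 (median -0.40), and 5 and 10 for resistant 2 (median -0.24). Of all genes 35.8% and 35.9% were lower. CRKL starts 2.26 Mb before BCR, within that stretch. The same stretches around ABL1 held 31 higher and 21 lower of 64 before it (median 0.16) and 9 higher and 22 lower of 38 after it (median -0.19) in K562 against OCI-AML3 parental.

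**Figure D3:**
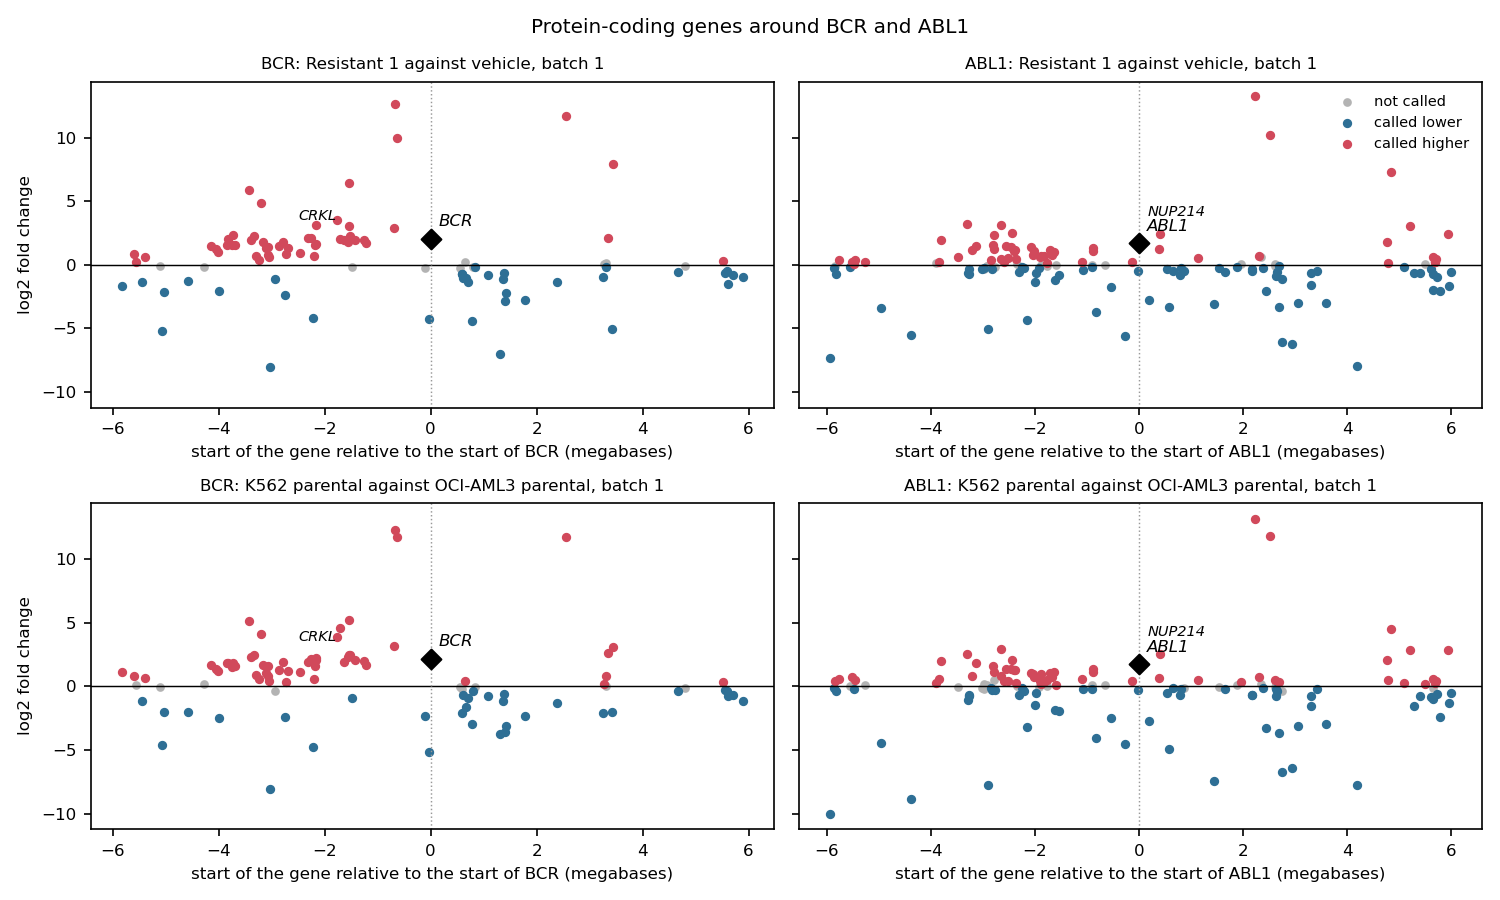
Log2 fold change (vertical axis) of tested protein-coding genes by the distance of their start from that of BCR (left) or ABL1 (right) in megabases (horizontal axis), for resistant 1 against vehicle in batch 1 (top) and K562 parental against OCI-AML3 parental (bottom). Red points were called higher, blue lower and grey not called, and the black diamond is BCR or ABL1 itself. Up to 3.5 Mb before BCR most points lie above 0 (35 of 42 higher in both comparisons), and after it most lie below.

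Genes around the members in the pathway were read as lists, 8 in all. Beside their counts stand the shares of all genes: 41.8% higher and 44.2% lower in resistant 1 against vehicle of batch 1, 42.9% and 42.2% in K562 against OCI-AML3 parental, and in batch 2 39.9% and 35.8% for resistant 1 and 40.2% and 35.9% for resistant 2. Among proteins that bind or activate ABL kinases, 4 of 12 tested were higher and 8 lower in resistant 1 against vehicle of batch 1, and likewise 4 and 8 in K562 against OCI-AML3 parental, with medians of -0.69 and -0.62 beside -0.04 and 0.01 over all genes. CTTN, an actin-binding ABL substrate, averaged 176 CPM in resistant 1 and 2.35 CPM in vehicle (6.22, adjusted p = 2.01e-30), and 183 CPM in K562 and 2.71 CPM in OCI-AML3 parental libraries. In batch 2, 4 of 11 genes of this list were higher and 4 lower in resistant 1 (median -0.10), and 4 and 5 in resistant 2 (median -0.21). In that batch CTTN was higher by 5.34 in resistant 1 and by 5.46 in resistant 2. BCR relatives and regulators of small GTPases were nearly all lower, 13 of 14 in resistant 1 and 12 of 14 in K562, where 44.2% and 42.2% of all genes were lower, with medians of -1.38 and -2.05. ABR, the close relative of BCR, averaged 1.15 CPM in resistant 1 and 126 CPM in vehicle libraries (-6.70, adjusted p = 2.21e-22), and 0.44 CPM in K562 and 127 CPM in OCI-AML3 parental libraries (-8.08, adjusted p = 1.86e-22). RAC3, a RAC GTPase, was the exception, higher by 1.10 in resistant 1 (adjusted p = 3.98e-14) and by 1.93 in K562 (adjusted p = 3.03e-19). In batch 2, 9 of the 14 were lower in resistant 1 and 10 in resistant 2, where 35.8% and 35.9% of all genes were lower.

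Other adaptors showed no common direction. Of 20 tested, 8 were higher and 10 lower in resistant 1, and 9 and 9 in K562, with medians of -0.18 and -0.13. In batch 2, 11 of 21 were higher and 8 lower in resistant 1, and 10 and 8 in resistant 2, with medians of 0.30 and 0.34. GAB3, the blood-cell relative of GAB2, averaged 57.6 CPM in resistant 1 and 6.36 CPM in vehicle libraries (3.16, adjusted p = 3.65e-22). Its difference was 3.31 in K562, 3.27 in resistant 1 of batch 2 and 3.07 in resistant 2. The GAB3 change in resistant 1 differed between batches by 0.01 (SE 0.17, adjusted p = 1), where that of GAB2 differed by 3.21. GRAP2, a GRB2-like adaptor, averaged 96.6 CPM in resistant 1 and 65.2 CPM in K562, with 1 count in all in vehicle and 3 in OCI-AML3 parental libraries. The membrane adaptor LAT2 averaged 0.31 CPM in resistant 1 and 358 CPM in vehicle libraries (-10.13, adjusted p = 3.50e-32).

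Kinases of the SRC family and their kin were lower in 8 of 13 cases in both comparisons, where 44.2% and 42.2% of all genes were lower, with medians of -0.84 and -0.78. In batch 2 also 8 of 13 were lower in each resistant group, with medians of -0.74 and -1.15. YES1 averaged 218 CPM in resistant 1 and 43.6 CPM in vehicle libraries (2.32, adjusted p = 1.24e-22), and 269.5 CPM in K562 and 52.6 CPM in OCI-AML3 parental libraries (2.36, adjusted p = 7.42e-23). JAK2, the kinase of cytokine receptors, averaged 77.99 CPM in resistant 1 and 19.2 CPM in vehicle libraries (2.02, adjusted p = 5.56e-18). FES, a myeloid kinase, had log2 fold changes of -6.40 in resistant 1 and -6.87 in K562. Among 17 genes of phosphatases and their regulators, not all of which oppose tyrosine kinases, 11 were lower and 4 higher in each comparison. Their medians were -0.73 and -0.59. SET, an inhibitor of a phosphatase and not a phosphatase itself, was among the higher, by 0.75 in resistant 1 of batch 1 and 0.95 in K562. Its batch 2 means were 1632 CPM in resistant 1 and 1409 CPM in resistant 2, against 1416 CPM in vehicle libraries. Of the 17 genes, 11 were lower in resistant 1 of batch 2 and 9 in resistant 2, with 1 higher in each. PTPN6 (SHP1) averaged 4.07 CPM in resistant 1 and 619 CPM in vehicle libraries (-7.23, adjusted p = 1.21e-30), and 2.42 CPM in K562 and 488 CPM in OCI-AML3 parental libraries (-7.67, adjusted p = 2.18e-30). PTPN1, a phosphatase of the endoplasmic reticulum surface, was higher by 1.27 in resistant 1 and by 1.05 in K562.

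Partners of CBL were lower in 5 and higher in 3 of 10 in each comparison, shares near those of all genes, and in batch 2, of 9, in 5 and 2 in resistant 1 and in 4 and 3 in resistant 2. SH3KBP1, an endocytic adaptor that binds CBL, averaged 6.96 CPM in resistant 1 and 301 CPM in vehicle libraries, and its relative CD2AP 244 CPM in resistant 1 and 47.1 CPM in vehicle (2.37, adjusted p = 4.10e-14). SLA, a small adaptor that brings CBL to its targets, had 0 counts in K562, at least 1250-fold lower than OCI-AML3 parental with 3 counts over the group as the floor. The core from RAS to ERK showed no common direction, with 7 higher and 9 lower of 18 in resistant 1 and 6 and 9 in K562, and medians of -0.18 and -0.09, and in batch 2 with 7 and 4 in resistant 1 and 5 and 5 in resistant 2. KSR1, an ERK scaffold, was higher by 2.99 in resistant 1 and 3.501 in K562, and RASA1, which switches RAS off, had log2 fold changes of -2.21 and -2.28. Of 19 genes of the PI3 kinase and AKT core, 3 were higher and 13 lower in resistant 1 and 5 and 11 in K562, where 44.2% and 42.2% of all genes were lower, with medians of -0.24 and -0.47. In batch 2 the counts were 2 and 10 in resistant 1 and 2 and 9 in resistant 2.

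**Figure D4:**
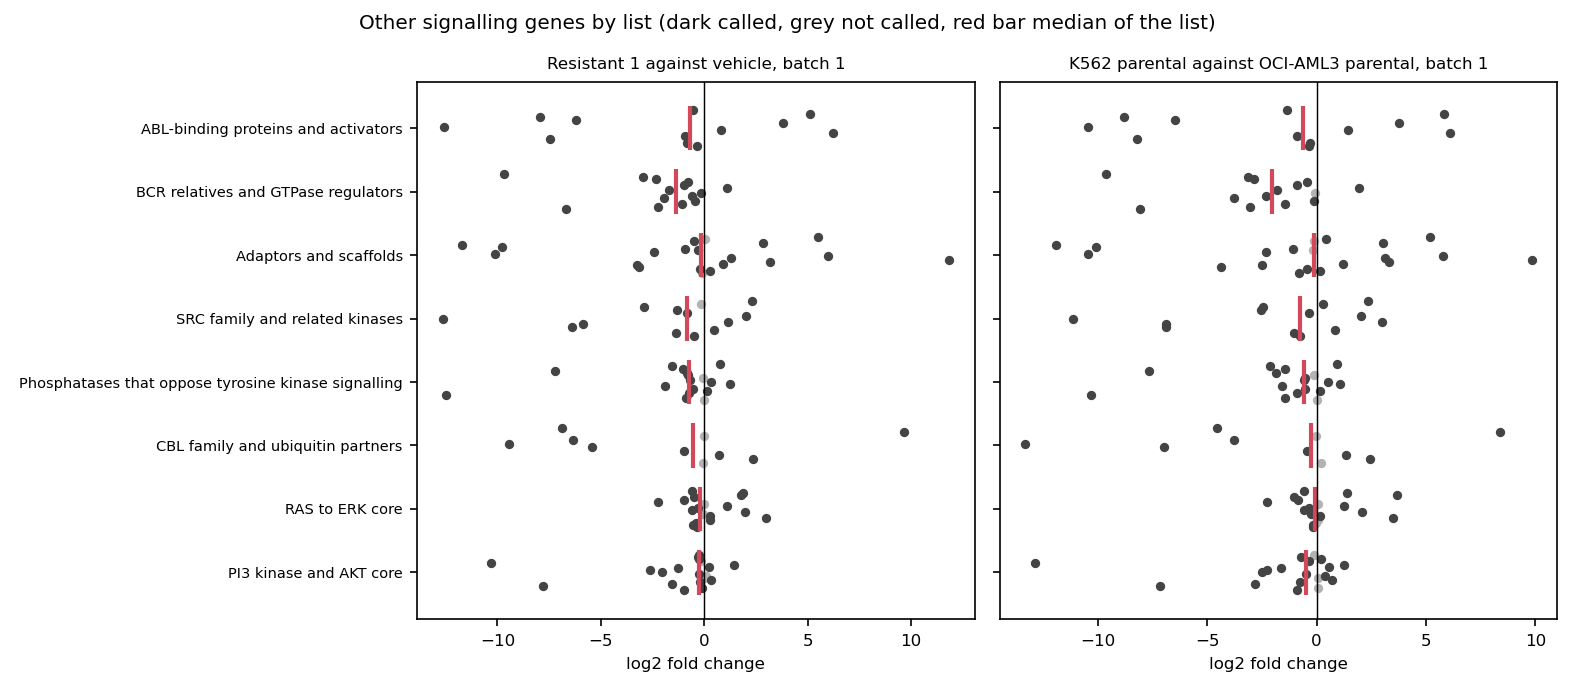
Log2 fold change (horizontal axis) of the tested genes of 8 lists of signalling genes (vertical axis) in resistant 1 against vehicle of batch 1 (left) and K562 parental against OCI-AML3 parental (right). Dark points were called, grey points were not, and the red bar is the median of the list. The BCR relatives and GTPase regulators have the lowest medians, -1.38 and -2.05, and the other 7 lists lie between -0.84 and -0.09.

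Likeness of pattern was measured as Pearson's r of log2(CPM + 1) over the 21 libraries among 10784 genes. These libraries fall into 2 kinds of profile, so r mostly records whether a gene differs between those kinds, and it is given as a description. The gene most like BCR was ABL1 (r = 0.989), followed by RAB3IL1 (0.987). ABL1 was most like RIPOR3 (0.992), NUP214 like NR6A1 (0.993), CRKL like PSMD5 (0.995), INPP5D like ACSL5 (0.996) and GRB2 like ZNF516 (0.999). For GAB2 the nearest gene was ECE1 (0.967). ABL2 and CBL had few close matches: 4 genes had r over 0.9 with ABL2, led by DST (0.917), and 2 with CBL, ACVR1B (0.926) and BRAF (0.9004), against 1506 for GRB2.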

How the data were processed

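Messenger RNA was sequenced in 21 libraries of 2 cell lines, 3 in each of 7 groups. The authors deposited whole-number counts per gene symbol, 1 table per batch, with no normalization; alignment to hg38 and DESeq2 1.22.1 are named in the submitters' processing notes, and the sources used here do not give the counting annotation or its strand setting. Groups, replicate numbers and batches came from the labels. The members, gene lists and tests were chosen with earlier results of these data known.

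Counts were fitted with edgeR 4.0.16 in R 4.3.3 (limma 3.58.1): TMM scaling, filterByExpr, robust quasi-likelihood fits of group means, two-sided F tests and Benjamini-Hochberg adjustment over all genes tested, called at an adjusted p under 0.05. All 12 libraries of batch 1 entered 1 fit, the 9 of batch 2 another, and vehicle and resistant 1 of both batches a fit with a batch interaction. SE is the log2 fold change over the root of F, with 95% intervals from the total degrees of freedom of the test, residual plus prior. The fits were tested on simulated counts. From each list, up to 2 called genes that rose most and 2 that fell most, at 5 CPM or more, were available to be named, and some are not reported here. Where a group had 0 counts, the bound uses 3 counts over the group and covers counting error only. Symbols matched GENCODE release 44 for 24575 genes and through a synonym or letter case for 1017. No replicate libraries agreed within sampling noise. In batch 2, same-numbered libraries correlated in their deviations from the group means at 0.214 to 0.267 between resistant 1 and vehicle and at 0.157 to 0.391 between resistant 2 and resistant 1, over 0.1 in every pair, so the numbers were taken to pair these groups; between resistant 2 and vehicle the lowest was 0.0843. In batch 2, 8 of 9 pairs matched best under their own number, including every pair of resistant 2 with vehicle. The exception was resistant 1 replicate 1, which matched resistant 2 replicate 3 best. The pairing comes from the data, not from the labels. The main fits had no replicate block, so SE, intervals and p-values of batch 2 do not use it unless the block is named. Depth was 14.1 to 21.1 M (mega) counts in batch 1 and 30.7 to 51.3 M in batch 2. Alternatives were DESeq2 1.42.0, median-of-ratios size factors, no low-count filter, the replicate number as a block, fewer or more groups in the fit, each library left out and other CPM scalings.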

Additional observations from a re-analysis of the deposited data

Results flagged for a closer look

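The effect of resistant 1 against vehicle differed between the batches for 6 members, by the interaction term of the fit over both batches, given as batch 2 minus batch 1 on the log2 scale. The difference was 3.21 for GAB2, whose log2 fold change was 3.98 in batch 2 and 0.69 in batch 1, and 1.42 for INPP5D, with -3.58 in batch 2 and -5.10 in batch 1. It was -0.71 for CRKL (1.46 in batch 2 and 2.08 in batch 1), -0.53 for BCR (1.62 and 2.06), -0.38 for ABL1 (1.41 and 1.71) and -0.29 for NUP214 (2.20 and 2.39). BCR, ABL1, NUP214 and CRKL kept a positive change and INPP5D a negative one in both batches, and GAB2 was higher in both by different amounts. All 6 interaction terms lie below the gap between the fold changes given with them. The interaction fit scaled both batches together, while those fold changes come from a separate fit of each batch.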

How the results depend on the processing

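Over the alternatives, 932 of the member results kept their side of the threshold, 24 lost their call and 14 gained one. No called result changed direction, while 18 that were not called in either setting did. The number of genes called between resistant 2 and resistant 1, 3706, ran from 2323 to 4814 with 1 library left out. It was 2467 and 2323 without resistant 1 replicates 1 and 3, and 2387 and 2431 without resistant 2 replicates 1 and 3. With replicates 1 and 3 alone in batch 2, chosen after seeing that GAB2 and CBL were lowest in replicate 2 of both resistant groups, 5630 genes and 2 members were called, GAB2 being added at -0.31 (adjusted p = 0.0270); fewer samples entered that fit. Same-numbered libraries of batch 1 correlated in their deviations over 0.1 in 5 of 18 pairs and matched best under their own number in 6, so those numbers did not pair the samples. With the replicate number as a block, 12488 genes were called for resistant 1 against vehicle in batch 1 (12566 without it) and 11858 in batch 2 (11521 without it). The block ended the calls of GRB2 in vehicle against OCI-AML3 parental (adjusted p = 0.0657) and of ABL1 in resistant 1 against K562 (0.0599). It added ABL2 in the batch difference (0.0489) and, as given above, in resistant 1 against vehicle of batch 2, and changed no other member call. The NUP214 batch difference was also not called with median-of-ratios factors (-0.23, adjusted p = 0.0899), in DESeq2 (-0.23, 0.0520) or with all OCI-AML3 groups in the fit (-0.28, 0.118). The CBL difference of resistant 1 from K562 was called with no low-count filter (-0.15, adjusted p = 0.0167) or in a fit of those groups alone (-0.15, 0.0138). Of 70 group levels, 26 moved by over 1 SD as CPM of total counts and 46 with 1 TMM scaling over both batches. Causes were not tested. Where a result was not called, a difference within its printed interval remains possible with 3 libraries a group at this depth.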
